A study of Homo sapiens with 4 samples.

Results

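The 38 genes described here encode the machinery of G2 and mitosis: cyclin B and CDK1, the anaphase control, the spindle checkpoint, kinetochores, chromosomal passengers, the spindle and cytokinesis. They were listed by name, a list drawn up with earlier results of these data known, and were found through the array's annotation as every probe set that names one of them alone. All 38 were present, among 11963 genes named this way, with 61 probe sets among the 22215 that are not controls. The genes were measured in LNCaP, an androgen-responsive line from a human prostate cancer, in medium with 10% fetal bovine serum. Cells transfected for 24 hours by lipofection with a MED1 expression vector (2 arrays) were set against cells that received the empty vector (2 arrays). MED1 belongs to Mediator, which carries signals from DNA-bound factors to RNA polymerase II. Every value comes from transiently transfected cells, and no untransfected cells were part of the comparison. For the controls, 1 free-text field names the MED1 vector, and the grouping follows the titles, source names and transfection field instead.

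Cells approaching mitosis build up cyclin B and CDK1, whose joint kinase activity starts chromosome condensation and spindle assembly. The spindle checkpoint then holds back the anaphase-promoting complex, a ubiquitin ligase, until every chromosome is attached, after which securin and the cyclins are destroyed and the cell divides. The genes are transcribed together late in the cell cycle, when the MuvB complex with B-MYB and FOXM1 takes the place of the repressive DREAM complex at their promoters. Their summed RNA therefore follows the share of dividing cells in a culture, and in bulk samples fewer cells in mitosis and less RNA per cell cannot be told apart. UBE2C and CDK1 are known from work on castration-resistant prostate cancer cells as genes that the androgen receptor and MED1 act on.

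Each value below is an MAS5 signal, the brightness of a probe set on a linear scale after each array was scaled to a common level. Such signals compare samples for 1 probe set and not 1 gene with another. The targeted gene checked the labels first. One MED1 probe set read 559 and 807 in the MED1 samples, against 292 and 315 in the empty vector samples, with no overlap. Its log2 fold change was 1.11 ± 0.16 (limma standard error, adjusted p = 0.032), and it did not pass without empty vector replicate 1 (adjusted p = 0.0607) or 2 (0.0869), with no filter (0.381) or without the variance trend (0.358). The second, brighter one read 1172 and 1074 in MED1 samples against 1097 and 1011 in empty vector samples (0.09 ± 0.10, adjusted p = 0.83), and its groups overlapped. Of 9 luminal prostate markers 7 were measured above the filter, KLK3 among them at 3659 and 3990 in MED1 samples against 4166 and 4208 in empty vector samples, and 0 of the 7 passed the test. Their median log2 fold change was -0.11, and both MED1 arrays were lower for 4 of the 7 (57.1%, against 23.5% of all tested genes). TMPRSS2 had the lowest p of these, at -0.31 ± 0.10 by its brighter probe set (unadjusted p = 0.0117, limma adjusted p = 0.392) and 0.17 ± 0.13 by the other. The part of these markers in the results below was not tested. Of 9 markers of leukocytes, endothelium and fibroblasts, VWF and COL1A1 lay above the filter. The actin controls, read at both ends of the transcript as a measure of RNA integrity, had a 3' over 5' ratio that was 9.40 and 9.32 in MED1 samples and 8.14 and 9.45 in empty vector samples. The same ratio of the GAPDH controls was 1.16 and 1.24 in MED1 samples and 1.16 and 1.27 in empty vector samples.

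None of the 38 G2 and mitosis genes passed the test for a difference after MED1 transfection. Of their 61 probe sets, 55 passed a filter on low signal, every gene keeping at least 1, and 0 of these 55 passed limma with Benjamini-Hochberg adjustment at 0.05. Over all 13329 tested probe sets 0.293% passed, so a set of this size holds few calls at the background rate. At an unadjusted limma p of 0.05, 1 of the 55 was higher and 1 lower (3.64% together). The background over all tested probe sets was 9.2%, or 4% higher and 5.2% lower. The higher one, a dim AURKA probe set, passed the filter only through its MED1 samples. Both arrays of one group lay beyond both of the other for 22 of the 55, or 40%, against 39.8% over all probe sets. In 16 of these 22 the MED1 samples were the lower ones (29.1% of 55, against a background of 22.6%), and in 6 the higher (10.9% against 17.2%).

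The precision sets what could have been seen. By the brightest tested probe set of each gene, log2 fold changes ran from -0.50 for MKI67 to 0.26 for MAD2L1, with 25 below 0 and 13 above. Those below 0 were 65.8% of the 38, where 54.5% of all tested genes lay below 0. The median of the 38 was -0.08, where that of all tested probe sets was -0.02. A median standard error of 0.11 gave 95% intervals that reached 1.18-fold to either side of the estimate. For 35 of the 38 genes (92.1%) the whole interval lay inside a 1.5-fold change in either direction, which held for 73.0% of all 7957 tested genes. The exceptions were MKI67, whose interval ran from 0.592-fold to 0.848-fold, PLK1 (0.599-fold to 1.19-fold) and MAD2L1 (0.907-fold to 1.59-fold). Over all 55 tested probe sets the bounds were wider, reaching down to 0.364-fold for a dim CDC25C probe set. They reached up to 2.2-fold for the dim AURKA one that passed the filter only through its MED1 samples. Replicates of these genes differed by a median of 0.11 on the log2 scale in both the MED1 and the empty vector pair. The group difference was larger than both replicate differences for 10 of the 38, where 28.2% of all tested genes met this.

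**Figure D1:**
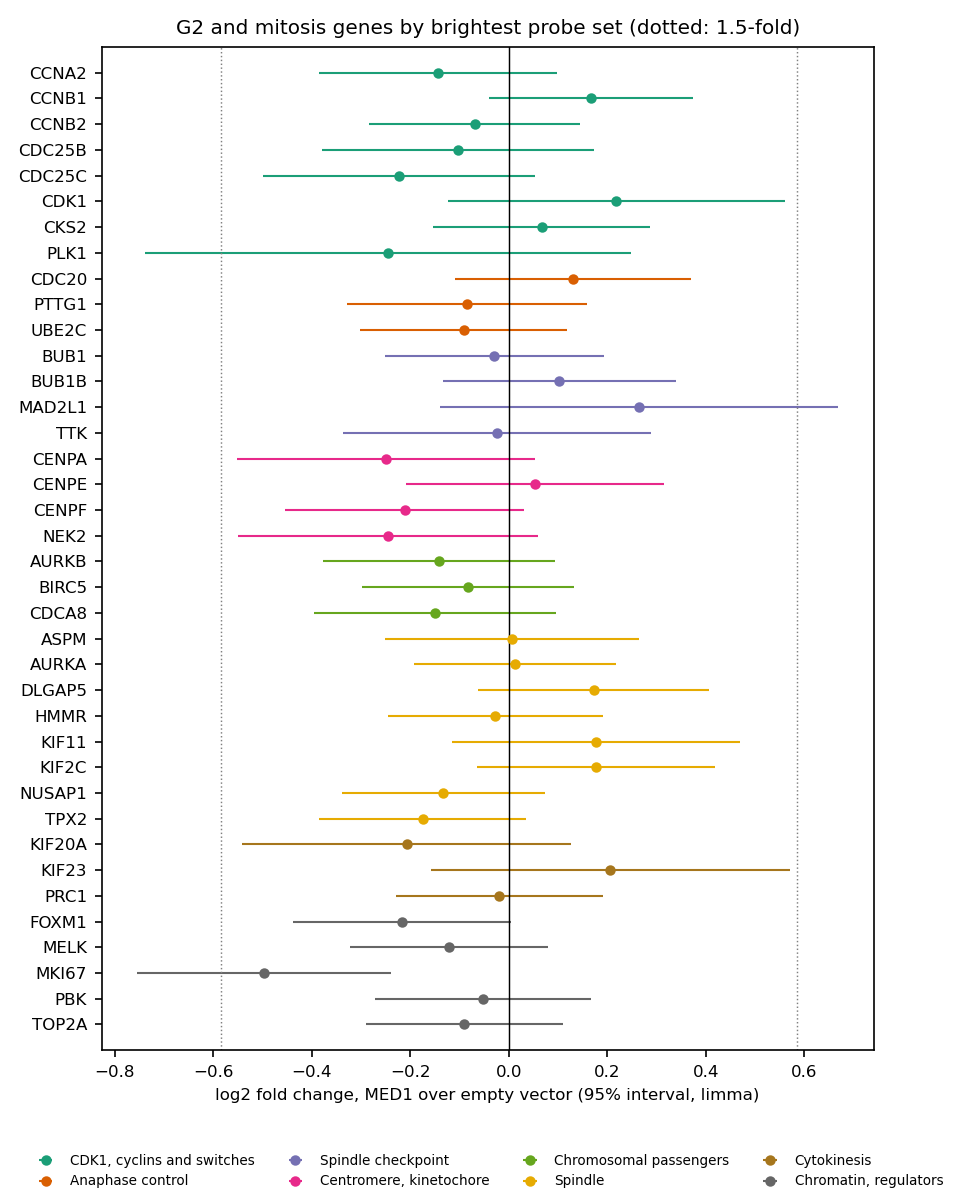
Log2 fold change of each of the 38 genes (MED1 over empty vector, n = 2 arrays each) by its brightest tested probe set, coloured by role, with limma's 95% interval as the bar and 1.5-fold as dotted lines. All intervals but those of MKI67, PLK1 and MAD2L1 lie inside the dotted lines, and the interval of MKI67 alone leaves out 0.

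What these genes have in common in their DNA was counted in RefSeq promoter windows (GRCh38.p14), 250 bases before to 50 after the annotated start, which 31 of the 38 genes matched. The CHR element, the site through which MuvB binds, was searched as TTTGAA or TTCGAA, and the CCAAT box, the site of the factor NF-Y, as CCAAT, both on either strand. A CHR element stood in 20 of the 31 windows (64.5%), against 10.8% of the windows of 6628 genes tested on the array and 16.6% of all 27305 in the table. Both elements together stood in 19 of the 31 (61.3%), against 4.63% of the tested genes. Among 40 windows of DNA replication and G1/S genes, the CHR element was found in 2 (5.0%) and a CCAAT box in 23 (57.5%). On the arrays, genes with and without the element overlapped: the median log2 fold change was -0.02 over the 20 genes with a CHR element and -0.12 over the 11 without, with ranges of -0.50 to 0.26 and -0.24 to 0.18. UBE2C, TTK, BIRC5, AURKA, TPX2, FOXM1 and PBK had no window and are in neither group. A gene counted as without the element may hold it outside its window or in another spelling. A match of letters is a description and no measure of binding.

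The 7 stretches that follow run 5′ to 3′ along each gene, 180 bases before to 20 after the annotated start. They were chosen as the core kinase and cyclin promoters, the anaphase activator and 3 genes described below, and capitals mark CHR elements and CCAAT boxes on either strand.
CDK1 (chr10:60778151-60778350, plus strand): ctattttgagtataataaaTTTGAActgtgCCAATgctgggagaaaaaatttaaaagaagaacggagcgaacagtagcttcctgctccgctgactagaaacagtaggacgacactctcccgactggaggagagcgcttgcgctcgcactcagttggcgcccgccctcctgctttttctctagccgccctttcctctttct
CCNB2 (chr15:59104966-59105165, plus strand): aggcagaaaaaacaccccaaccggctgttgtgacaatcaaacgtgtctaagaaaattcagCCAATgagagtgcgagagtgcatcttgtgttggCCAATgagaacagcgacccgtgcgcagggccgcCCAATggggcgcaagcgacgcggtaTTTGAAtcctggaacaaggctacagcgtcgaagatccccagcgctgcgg
CCNB1 (chr5:69166970-69167169, plus strand): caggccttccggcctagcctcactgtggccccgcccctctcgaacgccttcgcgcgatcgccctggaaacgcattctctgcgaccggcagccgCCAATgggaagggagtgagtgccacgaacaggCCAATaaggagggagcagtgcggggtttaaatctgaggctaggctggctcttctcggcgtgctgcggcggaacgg
CDC20 (chr1:43358801-43359000, plus strand): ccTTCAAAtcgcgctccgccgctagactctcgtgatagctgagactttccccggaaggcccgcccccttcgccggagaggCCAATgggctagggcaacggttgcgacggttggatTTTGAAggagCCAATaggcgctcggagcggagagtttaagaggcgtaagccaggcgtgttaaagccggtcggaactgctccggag
PLK1 (chr16:23678709-23678908, plus strand): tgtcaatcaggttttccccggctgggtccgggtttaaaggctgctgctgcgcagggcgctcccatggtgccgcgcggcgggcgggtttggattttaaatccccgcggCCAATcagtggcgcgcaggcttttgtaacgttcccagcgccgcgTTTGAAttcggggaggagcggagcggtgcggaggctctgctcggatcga
TOP2A (chr17:40417877-40418076, minus strand): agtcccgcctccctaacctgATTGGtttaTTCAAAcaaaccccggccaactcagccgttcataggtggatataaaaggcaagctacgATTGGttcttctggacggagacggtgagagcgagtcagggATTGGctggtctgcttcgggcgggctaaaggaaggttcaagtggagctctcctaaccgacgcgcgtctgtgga
MKI67 (chr10:128126404-128126603, minus strand): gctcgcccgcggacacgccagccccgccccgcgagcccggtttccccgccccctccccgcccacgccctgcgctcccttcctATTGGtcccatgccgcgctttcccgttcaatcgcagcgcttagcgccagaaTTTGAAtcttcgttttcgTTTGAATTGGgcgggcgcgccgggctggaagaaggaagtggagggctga
CCNB2, PLK1 and MKI67 carry a CHR element at the same place, its first base at position -29 counted from the first base after the 250 upstream ones as 0. CCNB2 has 3 CCAAT boxes ahead of it in the stretch shown, at -120, -87 and -54. In MKI67 that element overlaps a reversed CCAAT box by 1 base, and another CHR element starts at -47. CCNB1 shows 2 CCAAT boxes and neither CHR spelling in this window.

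**Figure D2:**
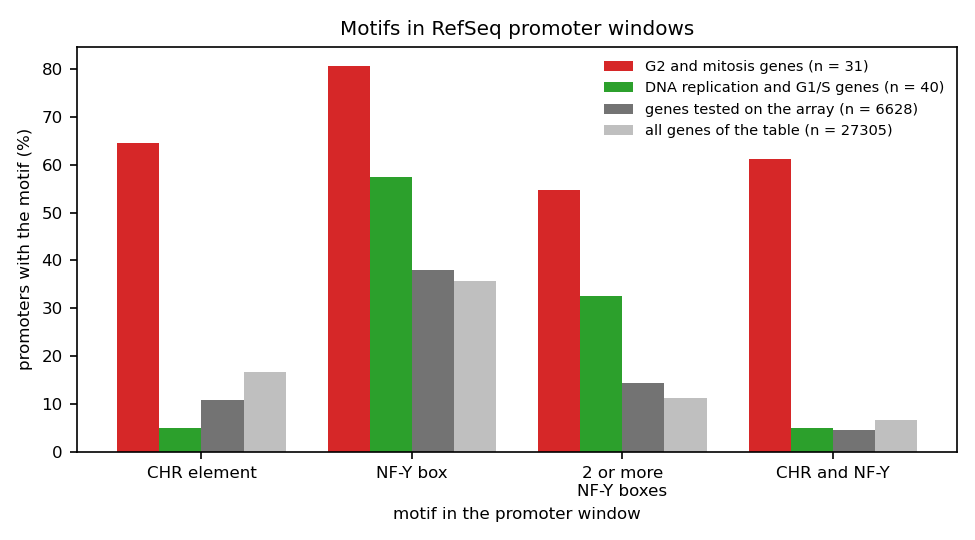
Share of promoter windows (%, vertical axis) that hold a CHR element, a CCAAT box (drawn as NF-Y box), 2 or more CCAAT boxes, or both elements, for G2 and mitosis genes, DNA replication and G1/S genes, genes tested on the array, and all genes of the RefSeq table. The red bars reach 64.5% for the CHR element and 61.3% for both elements, and the bars of the tested genes 10.8% and 4.63%.

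Among the 8 genes of the mitotic kinase switch, 0 passed and the median log2 fold change was -0.09. CDK1, the kinase that drives entry into mitosis, read 10180 and 10413 in MED1 samples, against 10534 and 7430 in empty vector samples. A single low array, empty vector replicate 2, set that difference (0.22 ± 0.15, limma adjusted p = 0.689), and without it the log2 fold change was -0.03. The other CDK1 probe sets showed no such low array. They read 4715 and 5151 in MED1 samples against 4962 and 4960 in empty vector samples, and 2955 and 3218 in MED1 samples against 3010 and 3132 in empty vector samples, with log2 fold changes of -0.01 and 0.01.

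CCNB1, the cyclin that activates CDK1, read 2937 and 2883 in MED1 samples and 2497 and 2689 in empty vector samples. Both MED1 arrays were the higher ones, and its change of 0.17 ± 0.09 had the lowest unadjusted p (0.103) among the members above 0 by their brightest probe set (limma adjusted p = 0.612). Its paralogue CCNB2 read 2581 and 2872 in MED1 samples against 2838 and 2877 in empty vector samples (-0.07 ± 0.10), with overlapping groups. CCNA2, the cyclin of S phase and early mitosis, gave -0.14 by the brighter of its probe sets and 0.09 by the other, and the groups overlapped on both. CKS2, a small subunit of CDK complexes, gave 0.07 ± 0.10.

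PLK1, a kinase that promotes mitotic entry and spindle formation, was the dimmest member, at 85.4 and 67.3 in MED1 samples and 108 and 79.5 in empty vector samples. The groups overlapped, and the log2 fold change of -0.24 ± 0.22 had the widest interval of the 38. CDC25B and CDC25C are phosphatases that remove the inhibitory phosphate from CDK1. CDC25B gave -0.10 ± 0.12. CDC25C read 479 and 497 in MED1 samples against 520 and 629 in empty vector samples, both MED1 arrays being lower (-0.22 ± 0.12), and a dimmer probe set read 32.1 and 85.2 in MED1 samples against 73.0 and 122 in empty vector samples. On that second one the groups overlapped, at -0.67 ± 0.35 (limma adjusted p = 0.599). It passed without MED1 replicate 2 (-1.20, adjusted p = 0.0299), when 1 MED1 array was left.

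Anaphase is set off by CDC20, which activates the anaphase-promoting complex, and UBE2C, the ubiquitin-conjugating enzyme that works with it. UBE2C read 2587 and 2529 in MED1 samples and 2608 and 2848 in empty vector samples. Both MED1 arrays were lower, by a margin that was small next to the gap between the empty vector arrays (-0.09 ± 0.09, limma adjusted p = 0.812, 95% interval -0.30 to 0.12). CDC20 read 1712 and 1884 in MED1 samples against 1522 and 1767 in empty vector samples, overlapping, at 0.13 ± 0.11. PTTG1, the securin that CDC20 marks for destruction, gave -0.09 ± 0.11.

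The spindle checkpoint kinases and their partner stayed within their spread. BUB1, a checkpoint kinase at kinetochores, read 721 and 698 in MED1 samples and 720 and 728 in empty vector samples, a log2 fold change of -0.03 ± 0.10. Its 4 other probe sets, with mean signals below the filter, were not tested. They differed in sign, with log2 differences of -0.54, -0.67, 0.57 and -0.05 from the brightest to the dimmest. BUB1B, which encodes the checkpoint protein BUBR1, gave 0.10 ± 0.105, and the kinase TTK -0.02 ± 0.14. MAD2L1, the inhibitor of CDC20, read 3312 and 2716 in MED1 samples against 3087 and 2014 in empty vector samples. As for CDK1, empty vector replicate 2 was the lowest array, and without it the log2 fold change of 0.26 ± 0.18 became -0.04. For MAD2L1, MED1 replicate 2 was also lower than MED1 replicate 1.

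At centromeres and kinetochores 3 of 4 genes lay below 0. CENPA, the histone variant that marks centromeres, read 240 and 260 in MED1 samples and 284 and 317 in empty vector samples. The groups did not overlap, and the log2 fold change was -0.25 ± 0.13 (limma adjusted p = 0.603). CENPF, a kinetochore protein made in G2, read 733 and 776 in MED1 samples against 938 and 817 in empty vector samples, without overlap (-0.21 ± 0.11), while a dimmer CENPF probe set overlapped at 0.03 ± 0.20. NEK2, a centrosome kinase, gave -0.24 ± 0.14 with overlap, and CENPE, a kinetochore motor, 0.05 ± 0.12.

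All 3 genes of the chromosomal passenger complex, which corrects faulty attachments and guides cytokinesis, had negative values, and 0 passed. Its kinase AURKB read 518 and 524 in MED1 samples and 567 and 586 in empty vector samples. The groups did not overlap, and the difference was -0.14 ± 0.10 (limma adjusted p = 0.715). BIRC5, which encodes survivin, was lower in both MED1 arrays by each of its 3 probe sets, at -0.08, -0.10 and -0.17. Its brightest read 2501 and 2502 in MED1 samples against 2507 and 2802 in empty vector samples. There the MED1 arrays lay only just below the lower empty vector array. CDCA8, which encodes borealin, gave -0.15 ± 0.11 with overlap.

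The 8 spindle genes split, 5 above and 3 below 0, with a median of 0.01 and 0 passing. AURKA, the centrosome kinase, read 1808 and 1858 in MED1 samples and 1764 and 1872 in empty vector samples, at 0.01 ± 0.09. TPX2, which activates AURKA at the spindle, read 1030 and 1043 in MED1 samples against 1145 and 1200 in empty vector samples. Both MED1 arrays were lower (-0.17 ± 0.09, limma adjusted p = 0.601). DLGAP5, which stabilises spindle fibres, read 1961 and 1672 in MED1 samples against 1633 and 1578 in empty vector samples, and KIF2C, a kinesin that shortens microtubules, 1319 and 1574 in MED1 samples against 1271 and 1274 in empty vector samples. Both genes were higher in each MED1 array, by 0.17 ± 0.10 and 0.18 ± 0.11. NUSAP1, a microtubule bundling protein, was lower in both MED1 arrays by each of its 2 probe sets, at -0.13 and -0.15. The kinesin KIF11 gave 0.18 ± 0.13, the microtubule-binding protein HMMR -0.03 and the spindle pole protein ASPM 0.01.

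Among the cytokinesis genes, the kinesin KIF20A gave -0.21 ± 0.15, the kinesin KIF23 0.21 ± 0.16 and the midzone bundler PRC1 -0.02 ± 0.09, each with overlapping groups. KIF20A read 1589 and 1165 in MED1 samples and 1440 and 1719 in empty vector samples, so its replicates lay far apart within each group. KIF23 was lowest in empty vector replicate 2, as were CDK1 and MAD2L1.

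**Figure D3:**
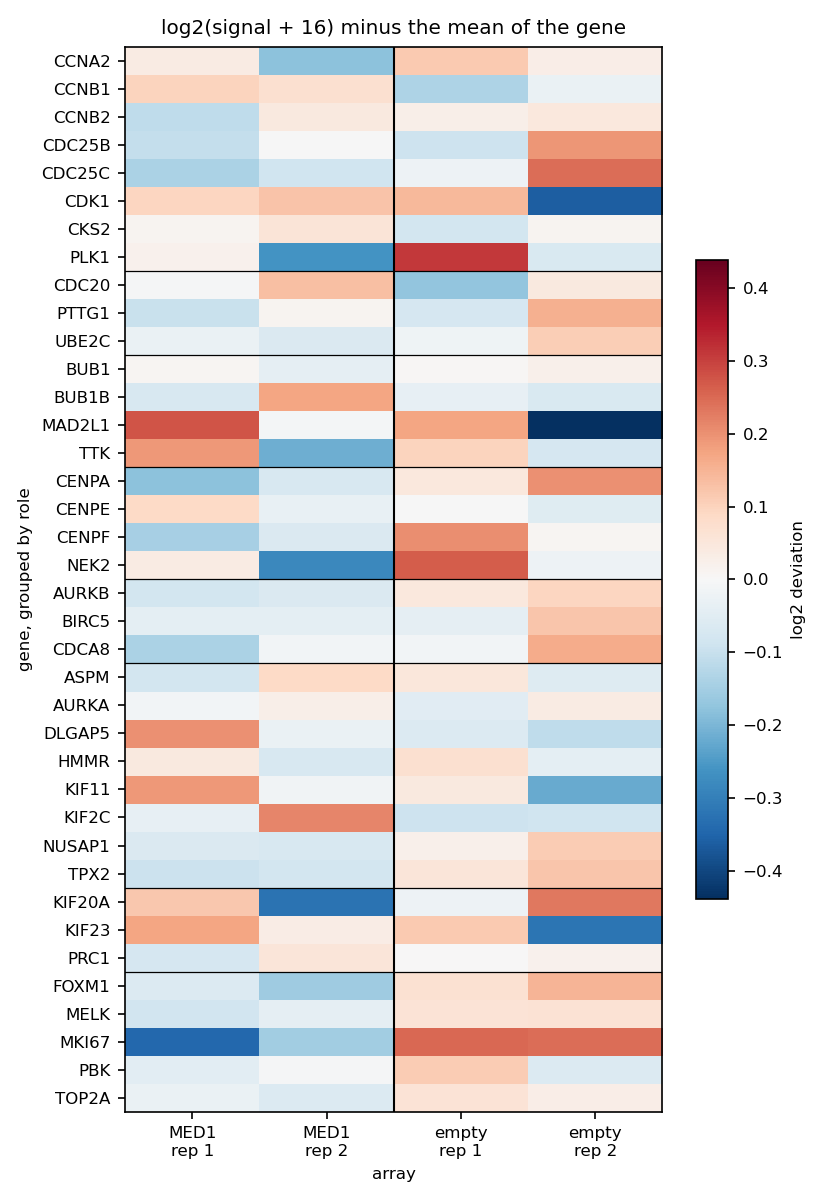
Deviation of each array (columns, MED1 left of the empty vector) from the mean of the gene on the log2(signal + 16) scale, for the brightest probe set of each of the 38 genes, with lines between roles. MKI67 and FOXM1 are lower in both MED1 arrays, while CDK1 and KIF23 are set apart by empty vector replicate 2 alone. MAD2L1 is lowest in that array too, but lower in replicate 2 of both groups.

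The 5 remaining genes, of chromatin and of regulation, all had negative values by their brightest probe set. MKI67, which encodes the proliferation marker Ki-67 on mitotic chromosomes, had the lowest adjusted p of the 38. Its brightest probe set read 400 and 460 in MED1 samples and 613 and 611 in empty vector samples. The groups were well apart, at a log2 fold change of -0.50 ± 0.11 or 0.709-fold (limma, unadjusted p = 0.00177, adjusted p = 0.215). It passed without MED1 replicate 2 (adjusted p = 0.0437, -0.59) and with the replicate number as a block (adjusted p = 0.0407). FOXM1, the forkhead factor that drives transcription of G2 and mitosis genes, read 912 and 851 in MED1 samples against 996 and 1057 in empty vector samples. Both MED1 arrays were lower, at -0.22 ± 0.10 (adjusted p = 0.555). MELK, a kinase of dividing cells, gave -0.12 ± 0.09 without overlap, and PBK, a mitotic kinase, -0.05 ± 0.10 with overlap.

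TOP2A, the topoisomerase that untangles sister chromatids, read 2359 and 2310 in MED1 samples and 2513 and 2461 in empty vector samples by its brighter probe set (-0.09 ± 0.09). The other read 1557 and 1610 in MED1 samples against 1548 and 1306 in empty vector samples (0.15 ± 0.11). The groups did not overlap on either probe set, in opposite directions. On the second, the lower MED1 array (1557) lay only just above the higher empty vector array (1548).

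Probe sets of 1 gene often disagreed in this way. Of 12 genes with several tested probe sets, 7 had values on both sides of 0: AURKA, CCNA2, CDK1, CENPF, KIF2C, MKI67 and TOP2A. The widest gap was that of MKI67, whose 4 probe sets gave -0.50, -0.12, 0.12 and 0.49 from the brightest to the dimmest. The dimmest read 173 and 130 in MED1 samples and 82.4 and 126 in empty vector samples, so here both MED1 arrays were the higher ones (± 0.22, limma adjusted p = 0.553). The other MKI67 probe sets read 336 and 359 in MED1 samples against 403 and 356 in empty vector samples, and 266 and 215 in MED1 samples against 209 and 228 in empty vector samples, and both overlapped. The direction of MKI67 thus depended on which probe set was read.

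AURKA had a dim probe set at 53.8 and 50.9 in MED1 samples and 26.6 and 33.0 in empty vector samples. Of the member probe sets above 0, it alone had an unadjusted limma p under 0.05. That probe set passed the filter only through its MED1 samples, its empty vector mean of 29.8 lying under the filter signal of 31. Its difference therefore lends no support to a rise. It gave 0.58 ± 0.25 (limma adjusted p = 0.518), while a probe set at 1738 and 1654 in MED1 samples against 1699 and 2087 in empty vector samples gave -0.15 ± 0.11 and the brightest 0.01. KIF2C gave 0.18 by its brighter and -0.20 by its dimmer probe set, without overlap in either. Below the filter, the untested CDC25C and CENPF probe sets had log2 differences of -0.35 and -0.02. Only BIRC5, CDC25C, HMMR, NEK2 and NUSAP1 had 1 sign in all their tested probe sets. The part of the 3' to 5' ratio or of probe sets that also match other transcripts in these disagreements was not tested.

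**Figure D4:**
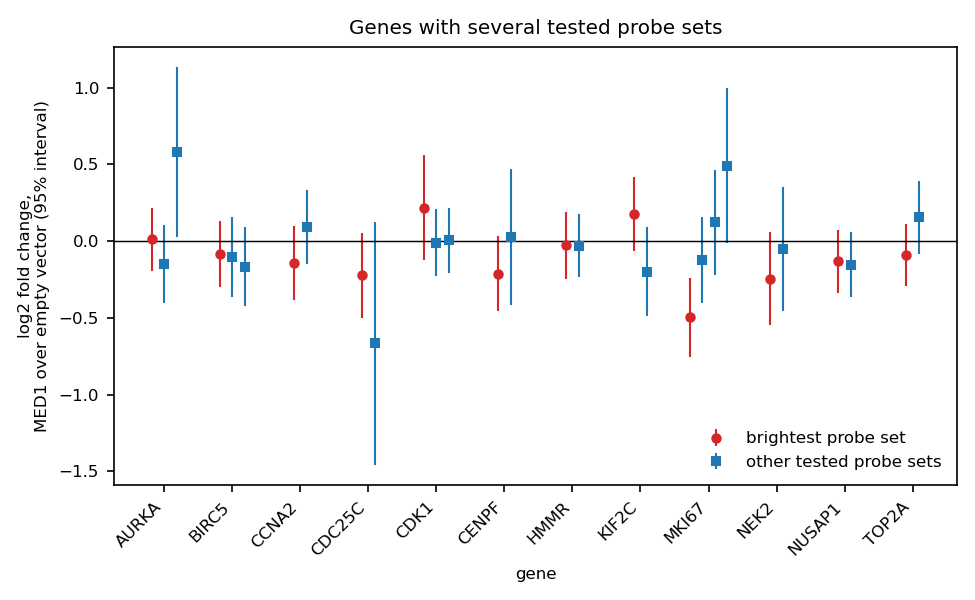
Log2 fold change (MED1 over empty vector, limma's 95% interval) of every tested probe set of the 12 genes with more than 1, the brightest in red and the others in blue. The MKI67 probe sets run from -0.50 to 0.49, while those of HMMR and NUSAP1 nearly coincide.

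Other genes of the same machinery, listed by function, were compared in the same fit. Of 48 tested genes of kinetochores, condensin, kinesins and centrosomes, 0 passed and 36 lay below 0 (75%, against 54.5% of all tested genes). The median log2 fold change was -0.09. KIFC1, a spindle kinesin, came closest at -0.73 ± 0.14 (242 ± 3.06 in MED1 samples and 414 ± 59.0 in empty vector samples, SD, n = 2; limma adjusted p = 0.0983). CENPM, a centromere protein, followed at -0.34 ± 0.105 (adjusted p = 0.37), and on the other side KPNA2, a nuclear import factor, at 0.26 ± 0.11 (0.513) and the kinetochore protein CENPI at 0.26 ± 0.16 (0.634). In this list the MED1 arrays were both lower for 19 of 48 genes (39.6%) and both higher for 3 (6.25%), against 23.5% and 17.7% of all 7957 tested genes.

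Of 11 tested subunits and partners of the anaphase-promoting complex 0 passed, with a median of -0.04. FZR1, its activator after mitosis, gave -0.45 ± 0.17 (limma adjusted p = 0.473), CDC16 -0.18, ANAPC2 0.19 and ANAPC13 0.07. Of 12 tested MuvB, DREAM and NF-Y genes 0 passed and the median was 0.03. The elements marked above are sites of MuvB and NF-Y, and sites of the other factors in this list were not searched. E2F5 gave 0.23, the MuvB subunit RBBP4 -0.20, and the NF-Y subunits NFYC and NFYB 0.13 and -0.21. Of 12 tested brakes on cyclin-dependent kinases 0 passed, with a median of -0.08. CDKN1B, which encodes the inhibitor p27, gave 0.16 ± 0.10, the antiproliferative BTG1 0.10, and the stress-induced GADD45A and GADD45B -0.27 ± 0.12 and -0.25 ± 0.15.

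The genes of DNA replication and the G1/S step served as the nearest comparison. Of 42 tested genes 0 passed, 28 lay below 0 (66.7%, where 65.8% of the G2 and mitosis genes and 54.5% of all tested genes did) and the median was -0.08, the same to 2 decimals as for the 38. Both MED1 arrays were lower for 12 of the 38 (31.6%) and for 13 of the 42 (31.0%), against 23.5% of all tested genes, and both higher for 3 of the 38 (7.89%) and 3 of the 42 (7.14%), against 17.7%. At an unadjusted p of 0.05, 1 of the 38 was lower (2.63%) and 0 higher, while 6 of the 42 were lower (14.3%) and 2 higher (4.76%), where all tested genes gave 5.69% lower and 4.1% higher. The 48 other mitosis genes lay nearer the replication list here, with 7 lower (14.6%) and 1 higher (2.08%). All these shares rest on few genes, that of the 38 on 1, so they set no list apart. DTL, which targets the licensing factor CDT1 for destruction, gave -0.67 ± 0.12 (limma adjusted p = 0.0784), the primase subunit PRIM1 -0.42 ± 0.09 (0.181), PCNA, the polymerase clamp, 0.36 ± 0.13 (0.459) and CCNE1 0.28 ± 0.11 (0.487). The widest of these lay beyond the range of -0.50 to 0.26 of the G2 and mitosis genes, and the difference between the lists was not tested.

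Over the 38 genes, the mean log2 deviation from the mean of each gene was -0.01 and -0.04 in MED1 samples, against 0.04 and 0.01 in empty vector samples. For all 7957 tested genes it was -0.0053 and -0.0153 in MED1 samples, against 0.0031 and 0.0174 in empty vector samples. The 4 pairings of 1 MED1 with 1 empty vector array gave list medians from -0.08 to -0.04.

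**Figure D5:**
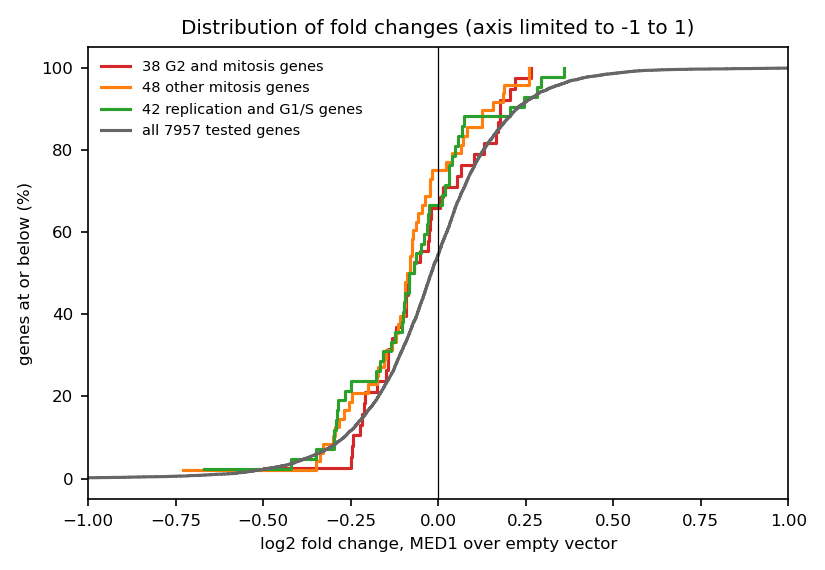
Cumulative share of genes (%) by log2 fold change, MED1 over empty vector, for the 38 G2 and mitosis genes, 48 other mitosis genes, 42 replication and G1/S genes and all 7957 tested genes. The 3 list curves lie left of the curve of all genes near 0, with list medians of -0.08, -0.09 and -0.08.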

How the data were processed

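The authors deposited signal intensities on a linear scale, made with MAS5 per the submitters' processing notes; its version is not given in the sources used here. Of 22277 probe sets, 62 controls were left out. The platform annotation names 1 gene for 19064 of the rest, several for 1043 and none for 2108, and symbols were updated through RefSeq identifiers. Signals were transformed to log2(value + 16), which understates changes at low signal. Probe sets under the 40th percentile of mean log2 signal (a signal of 31) were left out, leaving 13329, since no detection calls were used. Groups were compared with limma 3.58.1 (R 4.3.3; lmFit, eBayes with an intensity trend, two-sided), with Benjamini-Hochberg adjustment over all 13329. A gene's value is that of its brightest tested probe set. Standard errors and 95% intervals are limma's, mostly from a spread shared between probe sets (7.3 prior against 2 residual degrees of freedom).

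Nothing says whether the duplicates were separate cultures, and the p-values cover only how far these samples spread, possibly a technical spread. Arrays have no read depth, and their number limits the precision; an exact permutation test of 2 against 2 cannot go below 0.333. On simulated arrays of 13329 probe sets the fit recovered 29.0% of 1.5-fold, 71.6% of 2-fold and 93.0% of 3-fold changes. The simulated noise followed the variance model of the fit itself, and more changed probe sets were planted than passed in the data. The rates hold for that setting only. Members, lists and the genes given in full were chosen with earlier results of these data known. Values per array are given for 11 fixed genes, the 4 of lowest p in each direction, genes whose probe sets oppose each other with 1 under 0.05, and some further members. From the other lists the 2 of lowest p in each direction are named. The alternatives for MED1 were added after seeing the data. Alternatives covered pseudocount, scaling, filter, variance trend, replicate block, left-out arrays and the choice of probe set.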

Additional observations from a re-analysis of the deposited data

How the results depend on the processing

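The count of G2 and mitosis probe sets that passed was 0 in the reported fit and under both other pseudocounts, both scalings, both filters and no variance trend. It was 1, MKI67 (adjusted p = 0.0407), with the replicate number as a block, and 0 to 2 with an array left out. Same-numbered arrays deviated together at a correlation of 0.12 over 2 pairs, too few to treat the numbers as pairing. The count over all probe sets was 39, against 0 with no filter (limma; 1226 of 13329 filtered probe sets had an unadjusted p under 0.05), 5 without the variance trend, 239 with the replicate block and 25 to 216 with an array left out. The shares of higher calls were 35.9% as reported, 100% without the trend and 47.7% with the block. The median of the 38 genes was -0.0763, and -0.0243 after median centring (which moved that of all probe sets to 0.0363). Quantile normalization moved the median of the 38 the other way, to -0.0924, with that of all probe sets at -0.0012. It was -0.0287 by averaged probe sets, -0.0405 without shared-match probe sets (22 genes left) and -0.0753 to -0.0539 with an array left out.

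Without a call, median centring turned BUB1 (0.0226), TTK (0.0285), HMMR (0.0247), PRC1 (0.0328) and PBK (0.0003), and averaging probe sets turned KIF2C (-0.0112) and TOP2A (0.0315). With an array left out, ranges crossed 0 for CDK1 (-0.0329 to 0.4698), CCNB2 (-0.1461 to 0.0071), CDC25B (-0.2458 to 0.0386), PTTG1 (-0.2001 to 0.0297), BUB1B (-0.0188 to 0.2237), TTK (-0.2251 to 0.1782), MAD2L1 (-0.0415 to 0.5709), CENPE (-0.0061 to 0.1131), AURKA (-0.0299 to 0.0553), HMMR (-0.0852 to 0.0308), ASPM (-0.0774 to 0.0897), PRC1 (-0.0816 to 0.0434), KIF20A (-0.4289 to 0.0139), KIF23 (-0.0121 to 0.4243) and PBK (-0.1372 to 0.0338). Where 1 array was left in a group, it was taken to vary as much as the other pair. The cause of these shifts was not tested. Signals near the floor have no known background here.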
